A study of Caenorhabditis elegans with 2 samples.

Results

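The 10 genes described here encode small heat shock proteins of Caenorhabditis elegans: hsp-16.1, hsp-16.11, hsp-16.2, hsp-16.41, hsp-16.48, hsp-16.49, hsp-12.1, hsp-12.3, hsp-12.6 and sip-1. They were taken by name from the 19973 protein-coding genes of the nuclear chromosomes in Ensembl release 115 for WBcel235, the sequence that ce11 also carries. Ensembl uses only 8 names for them, because it calls hsp-16.11 hsp-16.1 and calls hsp-16.49 hsp-16.48. The copies were told apart by the RefSeq symbols at the same coordinates. The data are ChIP-seq peak lists for AMA-1, which is the largest RNA polymerase II subunit, in whole early embryos of the wild-type strain N2 with both sexes pooled and with no treatment given in the labels. There were 2 biological replicates of this 1 group and no second condition, so the genes were compared with all protein-coding genes and the replicates with each other. Whole embryos mix all cells of the stage, so a peak cannot be assigned to a cell type. The labels call both samples biological replicates but do not say how the cultures were kept apart, and neither heat exposure nor growth temperature is stated.

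Small heat shock proteins share an alpha-crystallin domain and hold unfolding proteins in a soluble state until chaperones that use ATP refold them. In C. elegans the hsp-16 genes are strongly induced by heat through the transcription factor HSF-1, which binds heat shock elements built from alternating GAA and TTC units. They stand in divergent pairs with a shared promoter, and an hsp-16.2 reporter is widely used to read out the heat shock response. The hsp-12 genes encode unusually short members of the family, and hsp-12.6 is a known target of DAF-16, the FOXO factor of insulin signalling. The product of sip-1 is found in oocytes and embryos.

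All 6 hsp-16 genes lie on chromosome V, as 3 divergent pairs at 2 places. The pair hsp-16.2 (chrV:1804334-1804957, minus strand) and hsp-16.41 (chrV:1805178-1805875, plus strand) is separated by 220 bp. At the other place hsp-16.1 (chrV:9087293-9087782, minus) and hsp-16.48 (chrV:9088131-9088617, plus) are followed by a mirror copy, hsp-16.49 (chrV:9089280-9089766, minus) and hsp-16.11 (chrV:9090077-9090604, plus), with annotated gaps of 348 bp and 310 bp inside the pairs. These positions and all others below are on ce11 and count from 1. The interval between each pair is shown because both genes start from it, with capitals marking heat shock element letters (GAANNTTC or TTCNNGAA, and their extension by a further unit) and TATAAA on either strand. The interval of the first pair is whole, and that of hsp-16.1 and hsp-16.48 stops short of the coding sequences by 48 and 95 bp because the models there have no annotated untranslated region on that arm. Both are plus-strand reference sequence, chrV:1804958-1805177 and chrV:9087831-9088035, and the second occurs again on the other arm, reversed, at chrV:9089862-9090066.
hsp-16.2 to hsp-16.41: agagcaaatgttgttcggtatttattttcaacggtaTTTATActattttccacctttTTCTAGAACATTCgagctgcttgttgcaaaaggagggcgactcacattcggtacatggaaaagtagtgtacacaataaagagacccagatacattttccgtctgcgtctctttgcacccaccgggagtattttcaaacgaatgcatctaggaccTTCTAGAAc
hsp-16.1 to hsp-16.48: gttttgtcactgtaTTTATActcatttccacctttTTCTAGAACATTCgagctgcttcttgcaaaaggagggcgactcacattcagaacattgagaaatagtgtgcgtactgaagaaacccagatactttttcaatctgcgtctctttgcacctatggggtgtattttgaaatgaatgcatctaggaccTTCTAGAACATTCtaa

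The 2 printed intervals, of 220 and 205 bp, were alike in the part that aligned, with 87.4% identity over 190 aligned columns. The rest of each interval is not covered by that value. From 250 bp before to 50 bp after the 5' end, the heat shock element of 2 units was found in 6 of the 10 genes and in 32.5% of all promoters, matches on both strands counted. Its form of 3 alternating units, which contains the shorter one, was found in the same 6 genes and in 1.97% of all promoters. Those 6 are the hsp-16 genes, with 3 or 4 matches of the shorter form each and 1 or 2 of the longer, and hsp-16.48 and hsp-16.49 have exactly the same promoter bases. Paired genes share an interval and the second printed interval recurs on the other arm, so the 6 genes are not independent cases. The letters TATAAA were found in 5 of the 10 genes and in 37.9% of all promoters. These matches describe the sequence and say nothing of whether a factor was bound.

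A further sequence is shown because the highest pooled peak at these genes lay on it and not on a promoter. It is the plus-strand reference around the best pooled summit next to hsp-16.48 and hsp-16.49 (chrV:9088897-9089097), with the summit base and 5 bases on either side in capitals. It holds no heat shock element of the forms searched and 1 match of TATAAA, which lies within the capitals.
summit beside hsp-16.48 and hsp-16.49: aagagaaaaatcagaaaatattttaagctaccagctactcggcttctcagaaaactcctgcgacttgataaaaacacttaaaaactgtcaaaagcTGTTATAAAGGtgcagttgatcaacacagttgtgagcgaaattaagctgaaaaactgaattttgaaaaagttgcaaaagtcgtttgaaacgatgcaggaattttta

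The small heat shock protein genes fell into those with a high AMA-1 peak (best pooled rank 165 or better), those with a low one (rank 7685 or worse) and those with none. A gene was given the peaks whose summit lay from 500 bp before to 500 bp past it, and a peak was ranked by the authors' signal within its list, with rank 1 the highest. A summit of the optimal list, the 724 peaks that the authors kept after an IDR (irreproducible discovery rate) threshold, lay at 5 of the 10 genes: hsp-16.2, hsp-16.41, hsp-16.48, hsp-16.49 and hsp-12.3. The same held for 3.95% of all protein-coding genes. Since neighbours shared summits, these 5 genes rest on 3 peaks, and with exact copies and shared summits counted once there were 3 of 7 loci. All protein-coding genes were not counted by loci, so the 3.95% per gene is no background for that count.

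The replicates gave nearly the same genes. Among the 724 highest peaks of replicate 1, a summit lay at 5 of the 10 genes and at 3.64% of all protein-coding genes. Among the 724 highest of replicate 2, it lay at 4 of the 10 genes and at 3.91% of all, with hsp-16.2 missing by its rank of 738. A summit anywhere in the 30000 peaks of a list lay at 7 of the 10 genes in each of the 3 lists, against 36.8% of all genes for the pooled peaks, 39.9% for replicate 1 and 37.4% for replicate 2. The 7 were the same in each list, and hsp-16.11, hsp-12.1 and hsp-12.6 had no peak in any. The median of the best rank over the 10 genes was 3925 among the pooled peaks, 4918 in replicate 1 and 6177 in replicate 2, and over all genes it had no value because most had no peak. No test was made of these counts, since there is 1 group and the genes were picked by name with results of these data known.

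**Figure D1:**
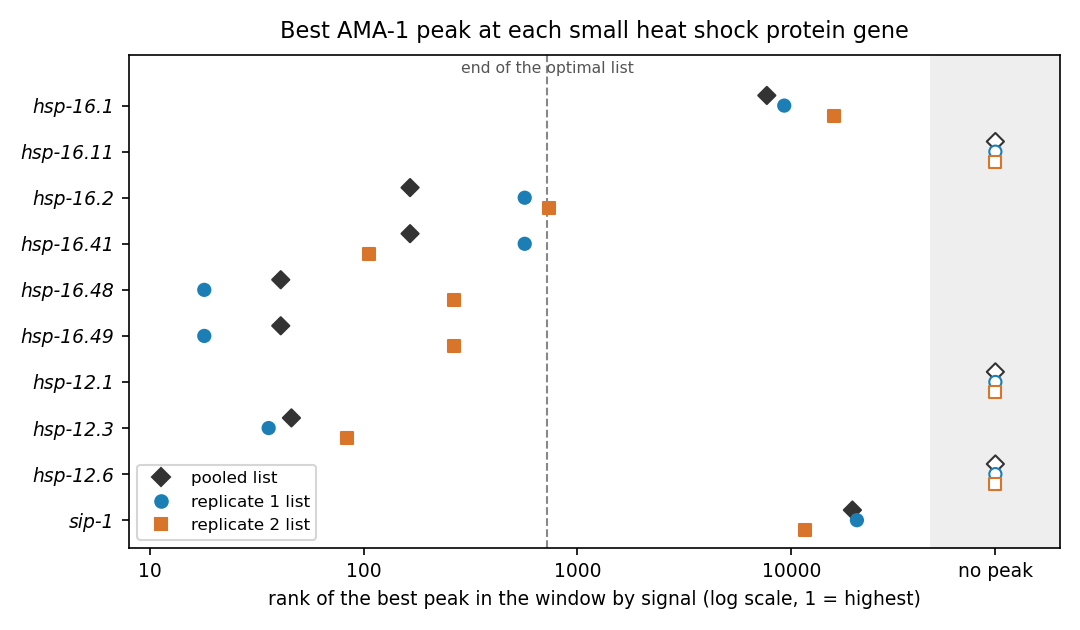
Rank of the best AMA-1 peak (x axis, log scale, 1 = highest signal) at each small heat shock protein gene (rows), with a diamond for the pooled list, a circle for replicate 1, a square for replicate 2 and open symbols for genes with no peak. The genes with an optimal summit lie at or left of the dashed line at rank 724 except for hsp-16.2 in replicate 2 (738), and hsp-16.1 and sip-1 lie at rank 7685 or lower down in all 3 lists.

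**Figure D2:**
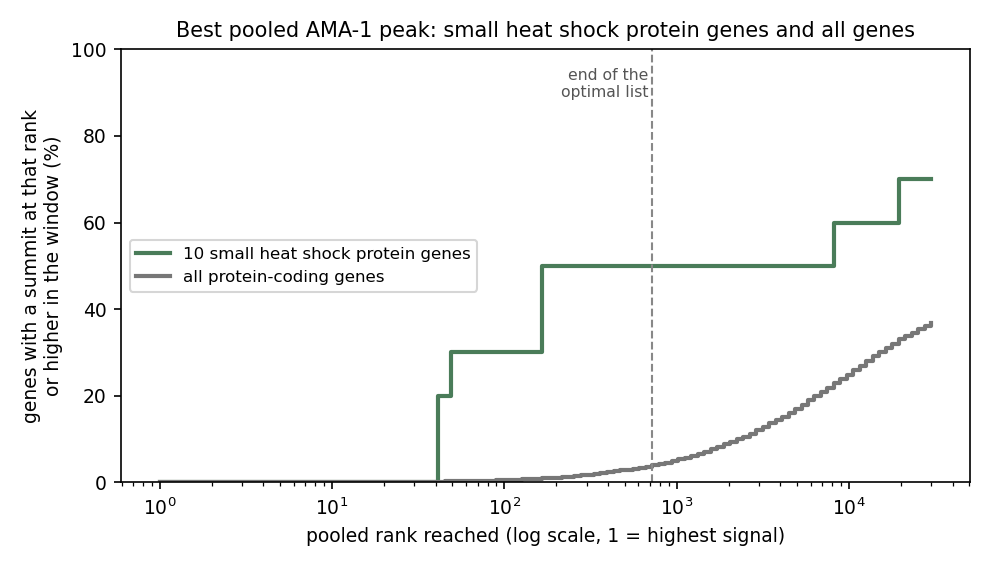
Percent of genes (y axis) whose best pooled peak reached a given rank or higher (x axis, log scale), in green for the 10 small heat shock protein genes and in grey for all protein-coding genes. At the dashed line, the end of the optimal list, the green line is at 5 of 10 genes and the grey line at 3.95%, and neither line allows for summits shared by neighbouring genes.

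The highest peak in the pooled list and in replicate 1 belonged jointly to hsp-16.48 and hsp-16.49, the inner genes of the mirrored cluster, whose coding sequences are identical. It ranked 41 in the pooled list, with a signal of 143.5. Its summit at chrV:9088997 lay 380 bp past the annotated 3' end of hsp-16.48 and 283 bp past that of hsp-16.49. The model of hsp-16.48 has no annotated untranslated region, and hsp-16.49 has the same gene and coding lengths. Both 3' ends are thus coding ends, and the ends of the transcripts are not annotated. In replicate 1 the peak ranked 18 with a signal of 106.6, and in replicate 2 it ranked 266 with a signal of 40.2. Of all protein-coding genes, 0.205% had a higher best rank by pooled signal, 0.0751% in replicate 1 and 1.56% in replicate 2. The peak was thus far higher in replicate 1, and in replicate 2 it ranked below the best peaks of hsp-12.3 and hsp-16.41. The 3 summits lay within 19 bp of each other, at 9088985, 9088997 and 9089004. No summit of any list lay in the promoters or annotated bodies of these genes.

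This peak stood between 2 exact copies of the same sequence. The arms of an inverted repeat run over chrV:9086861-9088741 and chrV:9089156-9091036, 1881 bp each, and hold all 4 genes, with hsp-16.1 and hsp-16.48 on the first and hsp-16.49 and hsp-16.11 on the second. None of the 36-base stretches of an arm occurs only once in the genome, whereas 100% of those of the 414 bp spacer do. The 3 peaks in the spacer were 351 bp wide when pooled, 330 bp in replicate 1 and 194 bp in replicate 2, and both replicate peaks lay wholly inside it. Across the optimal, pooled and replicate lists there were 0 summits inside an arm and 4 in the spacer, 1 per list. The optimal and pooled peaks are the same one, made from both replicates, so the 4 are not separate observations.

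**Figure D3:**
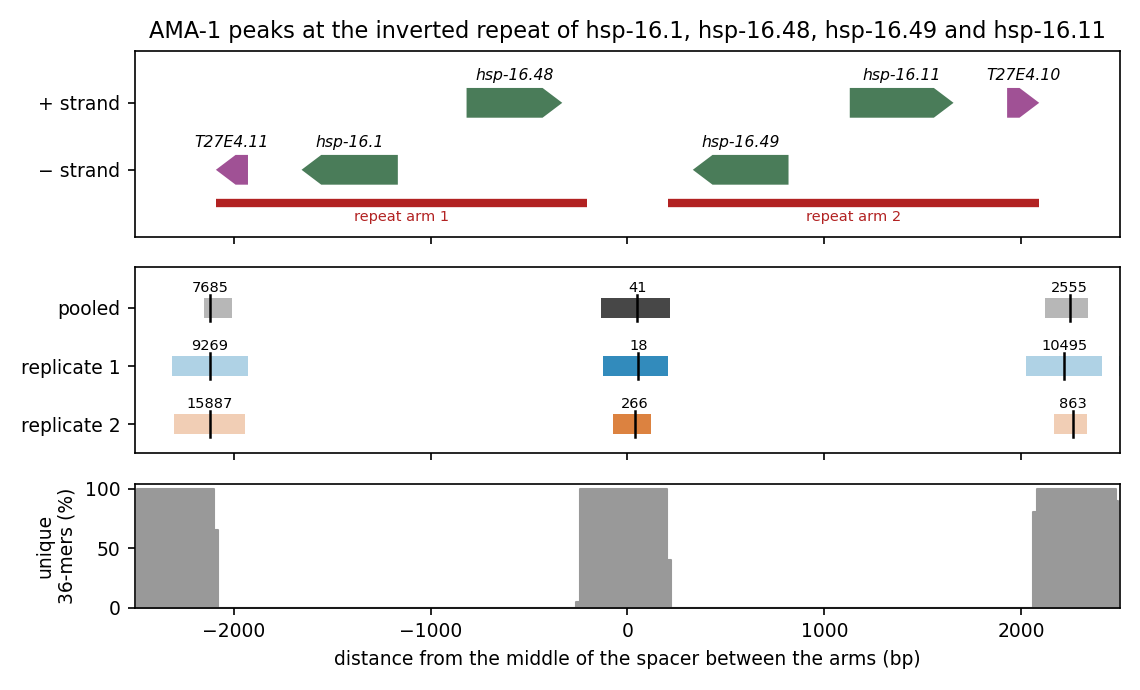
Map of the mirrored cluster against the distance in bp from the middle of the spacer: genes by strand (green, protein-coding; purple, small nuclear RNA) with the repeat arms in red, peaks of each list as bars with a black line at the summit and the rank above it (dark bars, ranks to 724; pale bars, lower ranks), and the share of unique 36-base stretches per 20 bp. Every summit lies in the spacer or outside the arms, where that share is 100% or close to it.

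The summits nearest the outer genes lay just outside the arms, though the peaks of hsp-16.1 in all 3 lists and the replicate 1 peak next to hsp-16.11 ran into them. The peak of hsp-16.1, an outer gene and a close relative of hsp-16.2, ranked 7685 among the pooled peaks (signal 22.1), 9269 in replicate 1 (12.7) and 15887 in replicate 2 (8.20). Its pooled summit at chrV:9086827 lay 466 bp past the annotated 3' end of hsp-16.1, 34 bp outside the arm and 31 bp from the small nuclear RNA (snRNA) gene T27E4.11. The genes ranked higher made up 22.2% of all by pooled signal, 23.9% in replicate 1 and 31% in replicate 2. The signal of this peak was above the median of all peaks in the pooled list (15.3) and in replicate 1 (9.67). In replicate 2 it was just below the median (8.55). The exact coding copy of hsp-16.1, hsp-16.11, had no peak in its window. Its nearest pooled summit lay 590 bp past the 3' end, 158 bp outside the other arm, at rank 2555 (signal 33.7). In replicate 1 the nearest summit to hsp-16.11 lay 562 bp past the end at rank 10495, and in replicate 2 it lay 608 bp past the end at rank 863. The snRNA gene T27E4.10 lies between hsp-16.11 and these summits.

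The sources used here do not say whether reads that fit several places entered the peak lists, so a lack of peaks inside the arms cannot be told apart from a lack of reads that could be placed there. Of the 36-base stretches in the gene windows, 4.56% were unique for hsp-16.1, 6.09% for hsp-16.11, 27.6% for hsp-16.48 and 25.3% for hsp-16.49. The other 6 genes had at least 94.6%, and the median of all protein-coding genes was 99.8%. A window with under 50% unique stretches was found for 4 of the 10 genes and for 2.59% of all genes. Among the optimal peaks themselves, 7 of 724 (0.967%) had under 50%.

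The coding sequences fell into classes that cut across the divergent pairs. Over 435 bp, hsp-16.1 and hsp-16.11 were identical, and over 429 bp hsp-16.48 and hsp-16.49 were identical. Between the 2 places, hsp-16.1 matched hsp-16.2 at 90.6% of aligned bases and hsp-16.48 matched hsp-16.41 at 92.1%. Within a divergent pair the match was lower, at 56.7% for hsp-16.2 and hsp-16.41 and 59.8% for hsp-16.1 and hsp-16.48. Each divergent pair thus joins 1 gene of each class, and the pair of hsp-16.2 and hsp-16.41 was the only one of the 3 whose windows could be read almost fully, with 98.3% and 99.2% unique stretches.

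At that pair AMA-1 was highest inside hsp-16.41 in all lists. The best pooled peak of hsp-16.41 ranked 165 (signal 82.1), with its summit at chrV:1805403 in the coding exon, 225 bp inside the gene. In replicate 1 it ranked 567 (33.4) with its summit 221 bp inside the gene, and in replicate 2 it ranked 106 (55.7) with its summit 326 bp inside. Here replicate 2 had the higher rank, opposite to the peak beside hsp-16.48 and hsp-16.49. Genes with a higher best rank made up 0.926% of all by pooled signal, 2.92% in replicate 1 and 0.586% in replicate 2.

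The same summit lay 446 bp upstream of hsp-16.2 and gave that gene its pooled rank of 165 and its replicate 1 rank of 567. A lower peak lay on hsp-16.2 itself, at rank 1885 among the pooled peaks (37.2), 23562 in replicate 1 (6.77) and 738 in replicate 2 (29.3). Its summits lay 155 bp, 174 bp and 147 bp from the 5' end of hsp-16.2, in the coding exon for the pooled list and replicate 2 and in the intron for replicate 1. On its own peak, hsp-16.2 was therefore among high peaks only in replicate 2, where 3.96% of genes ranked higher, and far down the list of replicate 1. None of the summits of this pair lay in the 220 bp between the genes that is printed above.

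Further lower peaks lay on and past hsp-16.41. In the pooled list they ranked 5575, 438 bp inside the gene, and 10048, 280 bp past its 3' end. In replicate 1 the peak past the 3' end, by 196 bp, ranked 2171, and one 420 bp inside ranked 12101. Replicate 2 had no further peak there beyond those at ranks 106 and 738. The spread of several summits along the gene was thus seen in replicate 1 and the pooled list.

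**Figure D4:**
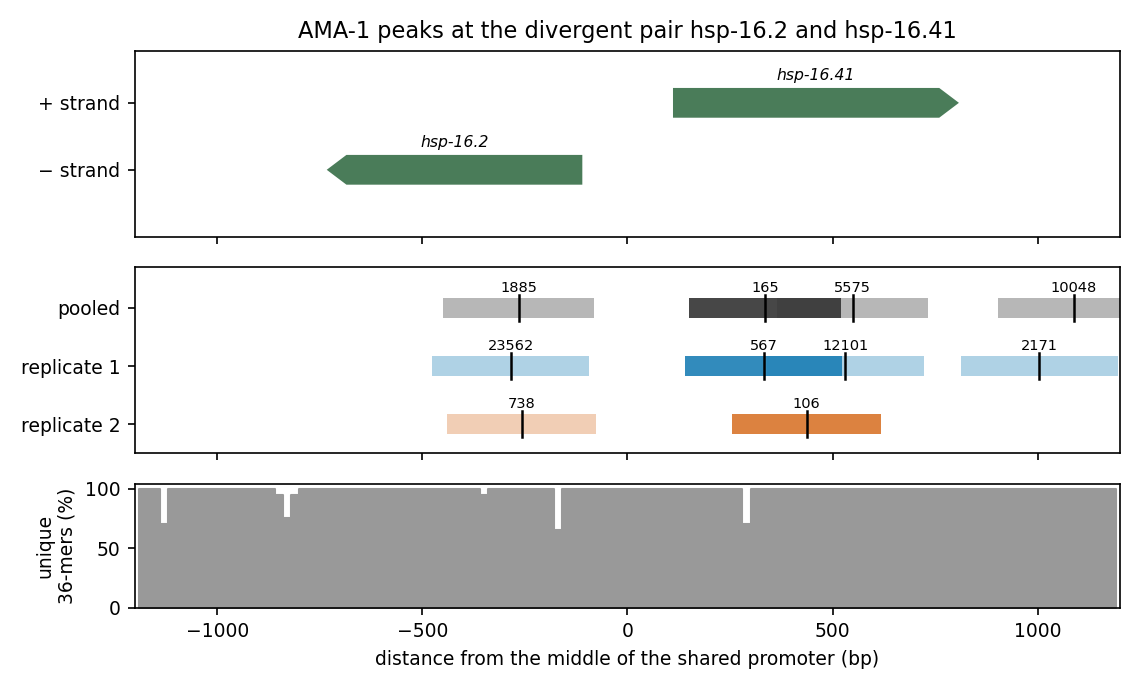
Map of the divergent pair against the distance in bp from the middle of the interval between the genes, with genes, peaks, summits, ranks and unique 36-base stretches drawn as in the map of the mirrored cluster. The highest peak of each list lies on hsp-16.41 (ranks 165, 567 and 106), a lower one lies on hsp-16.2 (1885, 23562 and 738), and no summit lies between the genes.

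Of the members hsp-12.1, hsp-12.3 and hsp-12.6, only hsp-12.3 had a peak in its window. It ranked 46 among the pooled peaks (signal 135.7), 36 in replicate 1 (78.2) and 84 in replicate 2 (59.9), so it was the one member peak within the upper 100 of both replicates. Genes with a higher best rank made up 0.225% of all by pooled signal, 0.155% in replicate 1 and 0.446% in replicate 2. The summit did not stay on one side of the gene's end: it lay 11 bp before the annotated 3' end in the pooled list and 32 bp before it in replicate 1, both in the 3' untranslated region, but 58 bp past it in replicate 2, within the snRNA gene F38E11.11 on the plus strand. That gene runs toward the 3' end of hsp-12.3 (chrIV:9444791-9445507, minus strand), and a noncoding RNA gene of unstated function, F38E11.24, covers the same place on the minus strand. The pooled summit lay 39 bp from F38E11.11 and 36 bp from F38E11.24, and polymerase on these genes and on hsp-12.3 cannot be told apart in these lists.

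A second summit lay in the coding exon of hsp-12.3 in every list. It ranked 3562 among the pooled peaks (29.9), 19497 in replicate 1 (7.98) and 597 in replicate 2 (31.3), at 211 bp, 244 bp and 154 bp before the 3' end. The replicates differed far more here than at the higher peak. Of the 36-base stretches under the higher peak, 75.1% were unique for the pooled peak, 76% in replicate 1 and 42.4% in replicate 2, against 100% under the second peak in all 3 lists. RefSeq gives hsp-12.3 a length of 524 bp where Ensembl gives 717 bp, with the same 3' end, so the summit distances to that end hold for both.

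The neighbour hsp-12.6 (chrIV:9446229-9447228, minus strand) had no peak. Its nearest summits were the second ones at hsp-12.3, 1227 bp past its 3' end for pooled peaks, 1194 bp in replicate 1 and 1284 bp in replicate 2. Its window was 100% unique, and its coding sequence matched that of hsp-12.3 at 69% of aligned bases. The remaining member of the class, hsp-12.1 on chromosome I, also had no peak, with 98.5% of its window unique. Its nearest summits lay 646 bp past the 3' end for pooled peaks (rank 9734), 538 bp past it in replicate 1 (rank 6576) and 3225 bp before the 5' end in replicate 2 (rank 9664). For both genes the lack of a peak says that none of the 30000 peaks of a list had its summit there, not that polymerase was absent.

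**Figure D5:**
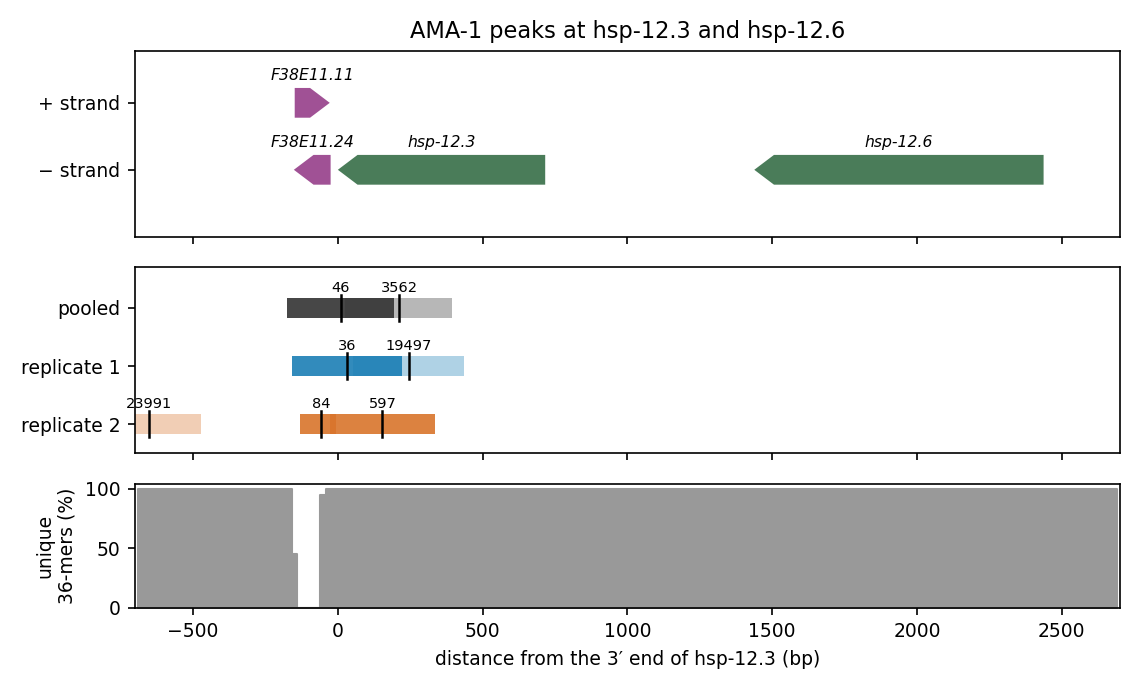
Map of hsp-12.3 and hsp-12.6 against the distance in bp from the 3' end of hsp-12.3, drawn as in the map of the mirrored cluster, with noncoding RNA genes in purple and 1 piRNA gene inside hsp-12.6 left out. The highest peaks of the pooled list and replicate 1 (ranks 46 and 36) lie across the 3' end of hsp-12.3 and the snRNA gene F38E11.11, over which unique stretches are few. That of replicate 2 (rank 84) lies over the noncoding genes and stops short of hsp-12.3, and no peak lies on hsp-12.6.

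The gene sip-1 (chrIII:10506106-10506801, minus strand) had a low peak in each list. It ranked 19311 among the pooled peaks (12.7), 20269 in replicate 1 (7.74) and 11616 in replicate 2 (10.1), with genes ranked higher making up 32.9%, 34.9% and 27.1% of all. The summits did not coincide: the pooled one lay in the coding exon 191 bp before the 3' end, that of replicate 1 lay 4 bp past the 3' end, and that of replicate 2 lay in the intron. The pooled summit also fell in the windows of urm-1, 398 bp away, which encodes a ubiquitin-like modifier, and of the noncoding RNA gene F43D9.8, 382 bp away. The window of sip-1 was 100% unique. The protein is known from embryos, but its gene ranked lowest of the 7 members with a peak in the pooled list and in replicate 1.

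Genes with ranks most like those of the members were looked up by the sum over both replicates of the absolute log2 ratio of best ranks, a measure of likeness over 2 samples only. The nearest to hsp-16.2 were kup-1 (ranks 557 and 767 in replicates 1 and 2, sum 0.0813) and enpl-1 (598 and 720, 0.112), which encodes an HSP90-type chaperone of the endoplasmic reticulum. The nearest to hsp-16.41 were cyp-31A2 (503 and 103, 0.214), a cytochrome P450 gene, and pqn-59 (524 and 93, 0.303). The nearest to hsp-16.48 and hsp-16.49 were gldi-8 (26 and 394, 1.10) and pdi-3 (35 and 295, 1.11), which encodes a protein disulfide isomerase. The nearest to hsp-12.3 were hrpa-1, which encodes an RNA-binding protein of the hnRNP A class, and F42A6.6, which share 1 summit (29 and 105, 0.634). The 2 ranks of hsp-16.2 come from different peaks, and the pooled ranks of kup-1 (1462) and enpl-1 (1342) were far below its 165, so the small sums for that gene cover the replicate ranks alone.

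The rest of the family was counted in the same way. Of 8 other small heat shock protein genes, 0 had an optimal summit, 2 had a summit in the upper 2000 pooled peaks and 4 had any pooled peak, against 3.95%, 9.17% and 36.8% of all protein-coding genes. The 2 were F08H9.3 and F08H9.4, neighbours on V that shared a summit of rank 876 among the pooled peaks (signal 47.7) and 473 in replicate 2, with no peak in replicate 1. Their pooled rank lay below the best ranks of the 5 members with an optimal summit and above those of hsp-16.1 and sip-1. It was also above the pooled rank of the peak on hsp-16.2 itself (1885). Of the rest, hsp-12.2 ranked 11434 and hsp-25 ranked 26393 in the pooled list. Of the 10 members, 5 had a summit in the upper 2000 pooled peaks.

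Among 8 regulators of the heat shock and stress response, 1 had an optimal summit, against 3.95% of all protein-coding genes. This was skn-1, a transcription factor of endoderm fate and of the oxidative stress response. It ranked 537 among the pooled peaks, 933 in replicate 1 and 536 in replicate 2. The next was ddl-1, whose product takes part in holding HSF-1 inactive, at 939, 1090 and 2612. The gene of HSF-1 itself, hsf-1, ranked 8469 among the pooled peaks, 4029 in replicate 1 and 8071 in replicate 2. In each list this was below the best ranks of the hsp-16 genes with an optimal summit. For hsp-16.2 that holds in replicate 1 only by the summit inside hsp-16.41, since the peak on hsp-16.2 itself ranked 23562 there.

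Of 18 heat-inducible and partner chaperone genes, 8 had an optimal summit and 17 had a pooled peak, against 3.95% and 36.8% of all protein-coding genes. Those with the best ranks were hsp-1, a constitutive HSP70 (102 among the pooled peaks, 38 in replicate 1, 786 in replicate 2), hsp-90, the cytosolic HSP90 (156, 71 and 55), and dnj-13, a J-domain partner of HSP70 (161, 56 and 431). The pooled ranks of hsp-16.48, hsp-16.49 and hsp-12.3 were above all 3, and hsp-16.41 and hsp-16.2, by their shared summit, were just below them. The other 5 were F44E5.4, a heat-inducible HSP70 gene in a divergent pair (389), ubq-1, the polyubiquitin gene (390), hsp-6, the mitochondrial HSP70 (529), aip-1, a gene induced by arsenite (599), and hsp-110 (634). The gene next to F44E5.4, F44E5.5, had no optimal summit and ranked 4973 among the pooled peaks, 3680 in replicate 1 and 7025 in replicate 2. The heat-inducible hsp-70 had no peak in any list. Heat-inducible genes thus stood both among the highest and among those with no peak.

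The label of the stage was checked with markers, and ama-1 was looked at as the gene of the protein pulled down. An optimal summit lay at 5 of 15 early-embryo markers, against 3.95% of all protein-coding genes. These were nhr-2, die-1, sdz-19, cpg-1 and skn-1, the last also counted among the regulators above. An optimal summit also lay at 1 of 11 markers of other stages, unc-54, a muscle myosin gene. It ranked 530 among the pooled peaks, 195 in replicate 1 and 16904 in replicate 2. Any pooled peak was found at 7 of the 15 early-embryo markers and at 5 of the 11 others, against 36.8% of all genes, so the lists of all peaks set the stages little apart. The early-embryo markers pes-10, end-3, med-1, med-2, tbx-37, tbx-38 and hlh-27 had no peak in any list. The ama-1 gene ranked 2206 among the pooled peaks, 2066 in replicate 1 and 1932 in replicate 2. Signals ran from 8.09 to 1410 for pooled peaks, from 5.17 to 817 in replicate 1 and from 4.15 to 606 in replicate 2, so signal values compare peaks only within a list. Read depth is unknown, because the lists carry no counts.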

How the data were processed

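The deposited peak lists on ce11 were used: 1 per replicate and 1 on both replicates pooled, with 30000 peaks each, and the optimal list, which equals the 724 pooled peaks of highest signal (724 of 724). Signal is the authors' own value per peak, in a scale not given in the sources used here, and it only ranked peaks within a list. The deposited −log10 q-value per peak, 3.58 throughout the optimal list, was not used for ranking. The sources used here name no aligner, peak caller or IDR threshold, and the lists on ce10 were not used here.

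Peaks were given to genes by summit with Python 3.11.15, numpy 2.4.6, pandas 2.3.3 and Biopython 1.88. Assignment of peaks to genes and the finding of unique stretches were tested on simulated data, and the motif search was not. Sequences and the count of 36-base stretches came from the WBcel235 genome, and coding identities from global alignment. With 1 group and genes picked by name, no test was run, and with depth unknown no interval is given. Alternatives were other windows, overlap rules, lists, each replicate left out, and stretches of 50 and 100 bases.

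The members, lists and rules were chosen with earlier results of these data known. Genes named are the members, genes sharing their best pooled summit, the best 6 genes of the other pathway lists by pooled rank and all of those with an optimal summit, the 2 genes most like each member with an optimal summit, and ama-1. Other names, among them hsp-70, F44E5.5, hsf-1, ddl-1, F08H9.3, F08H9.4, hsp-12.2, hsp-25 and the stage markers, were chosen after their values were seen.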

Additional observations from a re-analysis of the deposited data

How the results depend on the processing

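The 5 genes with an optimal summit depended on the window and on shared summits. A window of 250 bp gave 2 genes (2.87% of all genes), 500 bp before the gene to its 3' end gave 3 (2.56%) and the gene body gave 2 (2.21%). The fall comes from the rule's own construction, since the summit beside hsp-16.48 and hsp-16.49 lies 380 bp and 283 bp past their annotated ends and that of hsp-16.2 lies 446 bp upstream. Summits in the window of 1 protein-coding gene only gave 1 gene, hsp-12.3 (1.35%). That rule did not count noncoding genes, and the pooled summit of hsp-12.3 also lay in the windows of F38E11.11 and F38E11.24. Copies and shared summits counted once gave 3 of 7 loci, a count made for the members only. Genes with mostly unique windows, added after seeing the data, gave 3 of the 6 members left, against 4.02% of such genes. The upper part of the optimal list and the upper 2000 pooled peaks both gave 5 genes, against 2.13% and 9.17% of all. Leaving out a replicate gave 4 to 5 genes, 3.64 to 3.91% of all. Dropping summits within 200 bp of a noncoding gene, also added later, gave 4 genes, without hsp-12.3, and 3.52%. The median best rank was 1360 with a window of 1000 bp or with any overlap, as hsp-16.11 and hsp-12.1 then gained peaks, and 4918 to 6177 with a replicate left out, and it had no value in the 250 bp window or up to the 3' end. No paired analysis was possible because there is 1 group with no test. Of the best ranks of single genes under other settings, 27 moved by less than 1 SD of the 2 replicate ranks and 9 by more, while 6 lost their peak and 4 gained one. With 2 replicates and no depth, peak ranks carry no error of their own.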
